A study of Mus musculus with 3 samples.

Results

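The genes described here are the 6 glutamate uptake and recycling genes of the retina, *Glul*, *Slc1a3*, *Slc1a2*, *Slc38a3*, *Slc38a1* and *Glud1*, chosen by symbol for their known roles out of 32287 features counted. Levels of each gene were compared in Müller glia (MG) of 3 single-cell libraries, between MG in the cell cycle and the other MG, and between MG and the retinal neurons that were captured with them. Because each condition was 1 library, all differences below are differences between libraries, with exact 95% intervals that cover counting error only, and no test between conditions was possible.

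Glutamate is the transmitter of photoreceptors, bipolar cells and ganglion cells, and MG clear it from the retina. The transporters GLAST (*Slc1a3*) and GLT-1 (*Slc1a2*) carry glutamate into the cell, glutamine synthetase (*Glul*) turns it into glutamine, and the carrier SNAT3 (*Slc38a3*) lets glutamine out. Neurons take glutamine up through carriers such as SNAT1 (*Slc38a1*) and turn it back into glutamate, while glutamate dehydrogenase (*Glud1*) feeds glutamate into the mitochondrial citric acid cycle. *Glul* and *Slc1a3* are used as MG markers in the retina, and GLT-1 is also known from cones and bipolar cells of the mouse.

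All 3 groups were Glast-CreERT2; R26-CAG-LSL-Tdt mice, in which a Cre recombinase driven by *Slc1a3* (Glast) sequences and activated by tamoxifen turns on the red protein tdTomato. By the labels, tamoxifen was given at 75 mg/kg for 5 days from postnatal day 20 (P20), and vectors of the AAV7m8 type with a *GFAP* promoter were injected into the vitreous at P28. The dose and day of tamoxifen, the day of harvest and the name of the control shRNA differ in the methods of the study. The control group received AAV7m8-GFAP-GFP-LacZsh. The CCA (cell cycle activator) group received AAV7m8-GFAP-cyclin D1-p27sh, which supplies cyclin D1 and lowers the cyclin-dependent kinase inhibitor p27, at 9 parts to 1 part of the control vector. The CCANT group had the CCA mixture and in addition NMDA, an agonist of glutamate receptors that injures retinal neurons, at P35 and the histone deacetylase inhibitor TSA at P37. Retinas with good GFP signal were taken at P51, 2 to 4 of them were pooled per library, and tdTomato+ cells were sorted. The GFP vector was thus the whole dose in the control and a small part of it in the treated groups. Only tdTomato and GFP were added to the reference, so Cre and the cyclin D1 vector had no feature of their own. Whether transcripts of the Cre allele count as *Slc1a3*, or those of the vector as the mouse cyclin D1 gene, was not tested.

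The cells kept by the authors numbered 3758 (control), 3890 (CCA) and 3278 (CCANT), of which 3717, 3650 and 2818 lay in clusters with MG markers and are called MG. Their median depth was 24231, 20784 and 20479 UMIs per cell. The MG of the libraries differed in ways that no replicate separates from treatment. The control library held only cells with Y-linked UMIs apart from 241 unclear cells and 1 with both kinds, the CCA library held cells with *Xist* and 24 unclear ones, and the CCANT library was mixed, with 987 cells of the Y-linked kind, 1511 with *Xist*, 76 with both and 244 unclear. The 8 genes of the rod list, none of them at 0, summed to 242, 403 and 508 CPM (UMIs per 1000000 UMIs of all genes) in MG. Of the kept cells, 8 barcodes were shared between control and CCA, 4 between control and CCANT and 2 between CCA and CCANT. Sex and treatment cannot be told apart between the control and CCA libraries.

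In GRCm38 coordinates, *Glul* (ENSMUSG00000026473) lies at chr1:153899944-153909723 on the plus strand and *Slc1a3* (ENSMUSG00000005360) at chr15:8634124-8710764 on the minus strand. *Slc1a2* (ENSMUSG00000005089) lies at chr2:102658659-102790784 on the plus strand, where an antisense gene overlaps it. *Slc38a3* (ENSMUSG00000010064) lies at chr9:107650634-107669530 and *Slc38a1* (ENSMUSG00000023169) at chr15:96571418-96642913, both on the minus strand. *Glud1* (ENSMUSG00000021794) lies at chr14:34310727-34345265 on the plus strand. Both exonic and intronic reads of these 3′ libraries counted toward a gene, so a level is not of exons only.

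In MG, the clearest difference among the 6 genes was that of the transporter *Slc1a2*, which stood at 618 CPM (613 to 623) in control, 537 (532 to 542) in CCA-treated and 340.1 (335 to 345) in CCANT-treated MG. The CCANT level was the lowest, and the intervals of the 3 libraries did not overlap. On the log2 scale the CCA library was -0.20 (-0.22 to -0.18) from control, and CCANT was -0.86 (-0.89 to -0.84) from control and -0.66 from CCA. The other glutamate transporter of the 6 genes, *Slc1a3*, did not follow it. Its level was 1619 CPM (1611 to 1627) in control, 1486 (1478 to 1495) in CCA-treated and 1651 (1641 to 1662) in CCANT-treated MG, log2 differences from control of -0.12 (-0.13 to -0.11) and 0.03 (0.02 to 0.04).

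*Glul*, the enzyme that makes glutamine from glutamate, stood at 6696 CPM (6679.6 to 6713) in control, 5833 (5816 to 5849) in CCA-treated and 5429.7 (5411 to 5448) in CCANT-treated MG. It was lower in both treated libraries, by a log2 difference of -0.20 (-0.21 to -0.19) in CCA and -0.30 (-0.31 to -0.30) in CCANT. The levels of *Glud1* were 161 CPM (159 to 164), 136 (134 to 139) and 130.0 (127 to 133) in the same order. That is -0.25 (-0.28 to -0.21) and -0.31 (-0.35 to -0.27) on the log2 scale, the same order of libraries as for *Glul*.

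The glutamine carriers differed little. *Slc38a3* stood at 183 CPM (180.1 to 186), 179 (176 to 182) and 188 (185 to 192) in the control, CCA and CCANT libraries, log2 differences of -0.03 (-0.06 to 0.00) and 0.04 (0.01 to 0.08). *Slc38a1* stood at 127 CPM (124 to 129), 126 (123 to 128) and 119.8 (117 to 123), log2 differences of -0.01 (-0.05 to 0.03) and -0.08 (-0.12 to -0.04).

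For counts of genes, a level at least 20% lower or at least 25% higher, the same fold in either direction, was used. By that measure 0 of the 6 genes were lower and 0 higher in CCA than in control MG, against 4.85% and 7.72% of the 7568 genes with at least 20 CPM. In CCANT, 1 of the 6, *Slc1a2*, was lower and 0 were higher, against 7.43% and 7.32% of 7528 genes. *Glul* and *Glud1*, at -0.30 and -0.31 on the log2 scale, lay just inside the limit, and the number lower was 2 when MG not kept by the authors were added, 2 in cells with Y-linked UMIs only and 3 over all kept cells. No share over all genes is given for these other settings. All kept cells include a cluster that mixed MG and rod transcripts, with 32 control and 446 CCANT cells. Of the 7528 genes, 1.2% had a lower CCANT ratio than *Slc1a2* and 7.98% a lower one than *Glul*. The median log2 difference of the 6 genes was -0.16 in CCA and -0.19 in CCANT, and that of all genes tested was 0.02 and 0.00. Taken as the mean of ratios within the MG clusters described below, the medians of the 6 genes changed sign, to 0.13 and 0.081. Of those clusters, 2, 3 and 5 held only 161, 115 and 49 control cells.

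**Figure D1:**
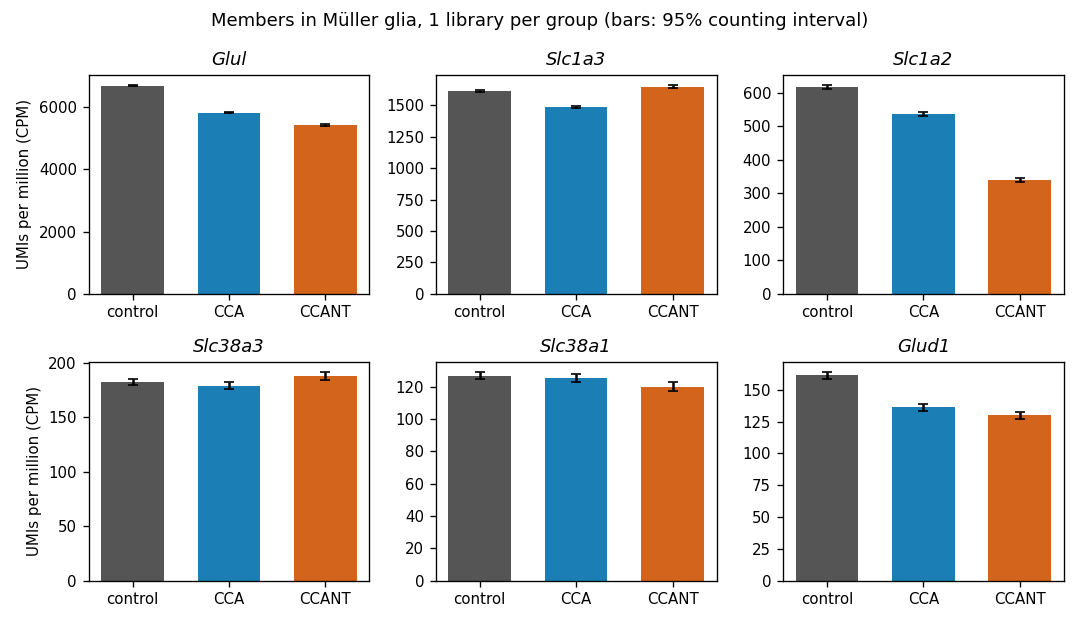
Level of each of the 6 genes in MG of the control, CCA and CCANT libraries, in CPM with exact 95% counting intervals, 1 library per group. *Slc1a2* steps down from 618 to 537 to 340.1 CPM, while *Slc1a3*, *Slc38a3* and *Slc38a1* differ little.

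Established MG markers outside the glutamate genes moved both ways between the same libraries. In CCANT MG the log2 difference from control was -0.41 for *Rlbp1*, the retinaldehyde carrier of the visual cycle, -0.28 for the water channel *Aqp4*, -0.39 for the potassium channel *Kcnj10* and -0.43 for the lipid transporter *Abca8a*. It was 0.08 for the transcription factor *Sox9*, 0.34 for *Clu* and 0.55 for *Apoe*, which both encode apolipoproteins. The *Slc1a2* difference was larger in size than those of all 8 MG markers.

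The CCANT library held cells of both sexes, so *Slc1a2* was also read among cells with the same kind of sex-linked UMIs. CCANT MG with Y-linked UMIs only were -0.84 (-0.88 to -0.81) from control MG of the same kind on the log2 scale, and CCANT MG with *Xist* were -0.67 (-0.70 to -0.63) from CCA MG with *Xist*. Inside the CCANT library the 2 kinds of cells stood at 345 and 339 CPM, a log2 difference of 0.03 (-0.02 to 0.07). For *Glul* and *Glud1* the log2 differences between CCANT and control MG with Y-linked UMIs only were -0.26 and -0.34.

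MG were also read within bands of depth per cell. In the band of 15000 to 25000 UMIs the median depth still differed, at 21610 in control, 20084 in CCA-treated and 19873 in CCANT-treated MG. Among MG of 15000 to 25000 UMIs, *Slc1a2* stood at 621 CPM in control, 544 in CCA-treated and 348 in CCANT-treated MG, and *Glul* at 7025, 6350.1 and 5747. Both genes kept their order of libraries in this band and over 25000 UMIs. Under 15000 UMIs, in 123, 654 and 379 cells, *Slc1a2* kept it too. *Glul* did not, at 6198 CPM in control, 4902 in CCA-treated and 5110 in CCANT-treated MG.

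Clustering of the MG, done without the 6 genes, the pathway genes below and sex-linked genes, separated states that the libraries held in different shares. Cluster 1, with *Kcnip4*, *Grin2b* and the Y-linked *Uty* among its leading genes, held 57.9% of control, 11.5% of CCA and 3.34% of CCANT MG. Cluster 4, led by the interferon-induced genes *Iigp1* and *Gbp2* and by *Cd74*, held 33.3%, 11.01% and 3.16%. Cluster 2, led by *Necab2*, *Pcdh7* and *Socs3*, held 4.33%, 25.6% and 34.8%, cluster 3, led by *Trhde* and *Xist* and with *Tsix* among its leading genes, held 3.09%, 23.6% and 31.7%, and cluster 5, led by *Akap12*, *Tnfrsf12a* and *Fosl1*, held 1.32%, 19.1% and 23.3%. Since each state came mostly from some of the libraries, and sex-linked genes led clusters 1 and 3, a cluster here may stand for a library or a sex.

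Inside the same state, the CCA library no longer stood below the control for *Slc1a2*. In clusters 1 to 4 the control levels were 723, 355, 690 and 485 CPM, and the CCA levels were 740, 411, 722 and 573 CPM. The log2 differences of CCA were 0.03 (-0.00 to 0.07), 0.21 (0.13 to 0.29), 0.06 (-0.01 to 0.14) and 0.24 (0.20 to 0.29). The CCANT levels were 489, 245, 478 and 347 CPM, below both other libraries in all 4 clusters. These were log2 differences from control of -0.56 (-0.66 to -0.47), -0.54 (-0.62 to -0.45), -0.53 (-0.60 to -0.45) and -0.48 (-0.60 to -0.37). *Slc1a2* was lowest in cluster 2 of each of the 3 libraries among these 4 clusters, and in cluster 5, where the control had few cells, it stood at 397 CPM in CCA and 300.0 in CCANT.

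The *Glul* difference did not keep 1 sign within the states. Within clusters 1 to 4, CCA stood at -0.01, 0.35, 0.11 and -0.18 from control on the log2 scale, and CCANT at -0.16, 0.05, -0.03 and -0.26. *Slc38a3*, which showed little difference over all MG, was higher in CCANT than in control in clusters 1, 3 and 4, by 0.43 (0.30 to 0.57), 0.39 (0.25 to 0.54) and 0.24 (0.09 to 0.38), and in cluster 2 the difference of 0.09 (-0.03 to 0.22) was within counting error. *Glud1* was lower in CCANT in each of clusters 1 to 4, at -0.20 (-0.38 to -0.03), -0.25 (-0.38 to -0.11), -0.20 (-0.35 to -0.06) and -0.24 (-0.43 to -0.05), all inside the limit.

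**Figure D2:**
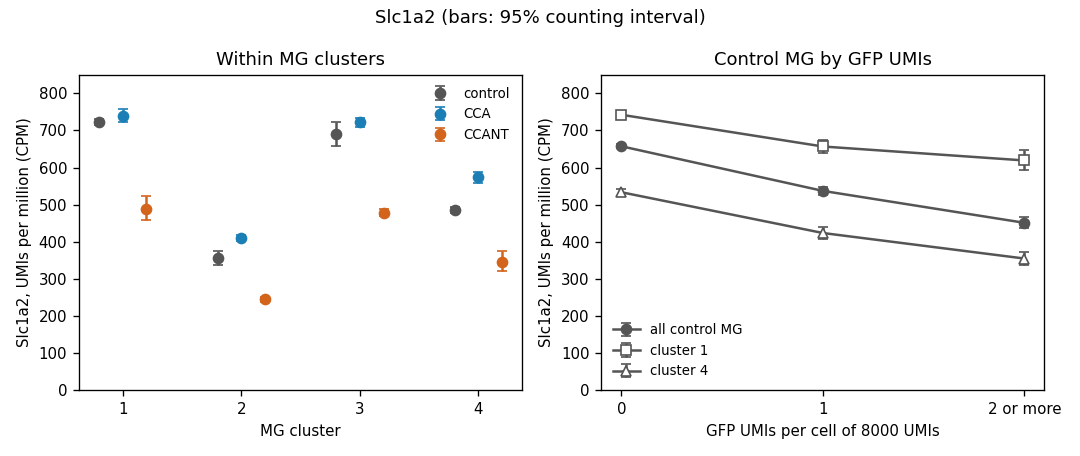
*Slc1a2* level in MG (CPM, exact 95% counting intervals) by library within clusters 1 to 4 on the left and, in control MG, by GFP UMIs per cell of 8000 UMIs on the right. Within each cluster CCANT lies below control and CCA, and control MG with 2 or more GFP UMIs lie at 451 CPM against 658 CPM in those with none.

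*Slc1a2* also varied with the GFP vector inside the control library. Each MG was thinned at random to 8000 UMIs and sorted by its GFP UMIs. The 2737 control MG with 0 GFP UMIs held 658 CPM of *Slc1a2* (651 to 664), the 633 with 1 held 537 (526 to 549) and the 320 with 2 or more held 451 (437 to 466). From none to 2 or more this is a log2 difference of -0.54 (-0.59 to -0.50), or 31.4% lower. *Glul* stood at 6821, 6542 and 5987 CPM in the same cells (12.2% lower), and *Slc1a3* at 1624, 1617 and 1578.

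The cells with more GFP lay more often in the interferon cluster, with 29.1%, 42.3% and 53.1% of them in cluster 4. Within cluster 4 alone *Slc1a2* stood at 534, 424 and 355 CPM, a log2 difference of -0.59 (-0.66 to -0.51), and within cluster 1 alone at 742, 657 and 619, a difference of -0.26 (-0.33 to -0.20). The MG markers differed by -0.24 for *Abca8a*, -0.15 for *Rlbp1* and between -0.11 and 0.12 for the other 6. In the treated libraries, where GFP was scarce (3.36 and 2.54 CPM against 50.6 in the control), *Slc1a2* was also lower in cells with 1 GFP UMI than with none. It stood at 424 (394 to 455) against 541 (536 to 546) CPM in 75 and 3486 CCA MG, and at 285 (254 to 319) against 341 (337 to 346) in 50 and 2723 CCANT MG. *Glul* and *Slc1a3* did not go 1 way with *Slc1a2*. In CCA MG *Glul* stood at 5829 (5717 to 5944) with 1 GFP UMI and 5842 (5825 to 5860) with none, and *Slc1a3* was higher with 1, at 1640 (1580.0 to 1701) against 1485 (1476 to 1493). In CCANT MG both were lower with 1, *Glul* at 4829 against 5446 and *Slc1a3* at 1493 against 1655 CPM. A cell with few GFP UMIs in those libraries may still carry the cyclin D1 vector, which had no feature of its own.

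*Slc1a3* drives the Cre that turns on tdTomato, so its level was set beside tdTomato in the wider set of cells, which was not filtered for tdTomato UMIs. MG with and without a tdTomato UMI at 8000 UMIs held 1609.8 and 1602 CPM of *Slc1a3* in control, 1483 and 1438 in CCA-treated and 1636 and 1609 in CCANT-treated MG. The log2 differences were 0.01, 0.04 and 0.02. All these cells had been sorted as tdTomato+, and a cell without a tdTomato UMI after thinning may hold one at full depth. What the sort or the authors' filter on tdTomato did to the level of *Slc1a3* was therefore not tested.

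Counts per cell at 8000 UMIs showed where the *Glul* difference lay. The median MG held 55 *Glul* UMIs in control, 49 in CCA-treated and 45.5 in CCANT-treated MG. The lower tail differed more, with 10% of cells at or below 31.9, 13 and 13 UMIs and 90% at or below 76, 74 and 70. Among MG outside the cell cycle gates described below, 73 of 3683 control cells (1.98%, Clopper-Pearson 1.56 to 2.49), 173 of 3243 CCA cells (5.33%, 4.59 to 6.16) and 176 of 2663 CCANT cells (6.61%, 5.69 to 7.62) held under 10 UMIs of *Glul*. In the treated libraries these cells lay mostly in clusters 2 and 5. They were 6.59% (5.07 to 8.41) of cluster 2 and 12.5% (10.1 to 15.3) of cluster 5 in CCA, 11.4% (9.46 to 13.6) and 8.81% (6.74 to 11.3) in CCANT, and 0 of 833 cells of cluster 3 in CCA. In the control the same clusters held few cells, and low cells were 16.9% (11.4 to 23.6) of 160 in cluster 2 and 20.8% (10.5 to 34.99) of 48 in cluster 5. The interval of control cluster 2 lay above that of CCA, and the other 3 pairs of intervals overlapped. Cluster 8, led by *Cenpf*, *Top2a* and *Ckap2*, also held 22 CCA cells outside the gates. Of these, 9 held under 10 UMIs of *Glul* (40.9%, 20.7 to 63.6).

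The median number of *Slc1a2* UMIs per MG was 4, 4 and 2, and the share of MG with any was 94.6% (Clopper-Pearson 93.8 to 95.3), 89.9% (88.9 to 90.9) and 81.6% (80.2 to 83.1). For the other genes the share was 99.8% or more for *Glul* and *Slc1a3*, 75.5% to 77.4% for *Slc38a3*, 57.1% to 60.7% for *Slc38a1*, and 68.6%, 60.9% and 60.2% for *Glud1*. Rod-like cells that reached the same 8000 UMIs, 50, 94 and 104 cells, gave the share in a cell type that should lack *Glul* and *Slc1a3*. Their median depth was 9090.5, 9170 and 9748.5 UMIs before they were thinned to 8000 UMIs like the MG. After thinning the share was 90%, 85.1% and 83.7% for *Glul* and 32%, 27.7% and 36.5% for *Slc1a3*, so a single UMI of either gene in a cell was no sign of expression. For *Slc1a2* it was 96% (86.3 to 99.5), 92.6% (85.3 to 97.0) and 96.2% (90.4 to 98.9) in the same thinned rod-like cells. This lay above the share in MG beyond counting error in CCANT and not in control or CCA. Rod-like cells of the wider set held *Slc1a2* at 75.2% to 131% of its MG level, so this share is no background level. Without thinning, 99.3%, 96.2% and 93.9% of MG held a UMI of *Slc1a2* and 84.2% or more held one of each other gene.

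The study asked whether MG re-enter the cell cycle, so the 6 genes were read in MG gated on cell cycle transcripts. After thinning to 8000 UMIs, cells with at least 3 UMIs of *Mki67* and *Top2a* were called G2/M. Other cells with at least 3 UMIs of *Mcm2* to *Mcm7*, which encode subunits of the replication helicase, were called S. The CCA library held 168 G2/M and 163 S cells beside 3243 others, the CCANT library 56, 59 and 2663, and the control only 2 and 5, which were not read. Cells of 1 library are no replicates of a treatment. Of the CCA G2/M cells 73.2% lay in cluster 8, and of those with under 3 *Mcm* UMIs, read below, 96.2%. The MG name of this cluster was weak. Its MG marker score, a median log2 ratio to the median cluster, was 1.07, against 1.02 for T and NK cell markers. The other MG clusters scored 2.44 to 2.62 for MG.

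The CCA cells in G2/M held far less *Glul* than other CCA cells, at 1803 against 6150.3 CPM, a log2 difference of -1.77 (-1.80 to -1.74). *Slc1a2* stood at 290.2 against 557 CPM (-0.94, -1.02 to -0.86) and *Slc38a3* at 107 against 185 (-0.78, -0.92 to -0.66). *Glud1* stood at 97.2 against 139 CPM (-0.51, -0.65 to -0.38) and *Slc1a3* at 1132 against 1513 (-0.42, -0.46 to -0.38). The neuronal type glutamine carrier *Slc38a1* went the other way, with 183 CPM in G2/M against 122 (0.59, 0.49 to 0.69). In all, 5 of the 6 genes were lower by this measure and 1 was higher, against 23.5% and 35.9% of the 8077 genes tested. Their median was -0.65, that of all genes 0.10, and 0.53% of all genes had a lower ratio than *Glul*.

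The CCANT cells in G2/M showed the same order of the 6 genes. *Glul* stood at 1697 against 5554 CPM in other CCANT MG (-1.71), *Slc1a2* at 174 against 345 (-0.99), *Slc38a3* at 102 against 190.4 (-0.90), *Glud1* at 92.4 against 131 (-0.51) and *Slc1a3* at 1176 against 1666 (-0.50). *Slc38a1* was the exception on the CPM scale, with 115 against 119 CPM (-0.06, -0.28 to 0.15). Thus 5 of 6 were lower and 0 higher, against 23.5% and 35.4% of 8055 genes. These G2/M cells were deeper, with a median of 27602 UMIs against 20388. As UMIs per cell, *Slc1a3* (34.1 against 35.7) and *Glud1* (2.68 against 2.82) differed little, and *Slc38a1* was higher (3.32 against 2.56). *Glul* (49.2 against 119), *Slc1a2* (5.04 against 7.40) and *Slc38a3* (2.96 against 4.08) were still lower.

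In S the 6 genes differed little from other MG. In CCA, *Glul* stood at 5329, *Slc1a3* at 1488, *Slc1a2* at 497, *Slc38a3* at 165, *Slc38a1* at 125 and *Glud1* at 142 CPM. The log2 differences lay between -0.21 for *Glul* and 0.04 for *Slc38a1* and *Glud1* in CCA, and between -0.18 for *Glul* and 0.15 for *Slc38a1* in CCANT. In CCA 0 were lower and 0 higher by the same measure, against 7.68% and 14.9% of 7751 genes, and in CCANT again 0 and 0, against 8.66% and 16.4% of 7741. The CCA cells held 44 *Glul* UMIs of 8000 at the median in S, 51 outside the gates and 7.5 in G2/M.

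The G2/M cells, named only from the gate on *Mki67* and *Top2a*, were split by whether they also held 3 or more *Mcm* UMIs, a split chosen after the values had been seen. In CCA, 63 did and 105 did not. The 63 held the replication clamp gene *Pcna* at 634 CPM, above the 276 CPM of the S gate, and the 105 held it at 77.3. Of the 63, 65.1% lay in cluster 7, led by *Hells*, *Atad2* and *Mcm6*, so the markers of the 63 go against a plain G2/M name. *Glul* stood at 3134 CPM in the former and 930.3 in the latter, or -0.97 (-1.01 to -0.94) and -2.72 (-2.78 to -2.67) from other MG. *Slc1a2* stood at 422 and 204 CPM and *Slc38a3* at 121 and 98.1. *Slc38a1* stood at 129 and 219 CPM, or 0.08 (-0.11 to 0.26) and 0.85 (0.73 to 0.96), so its higher level lay in the cells with under 3 *Mcm* UMIs. *Slc1a3* differed little between the sorts, at 1196 and 1090.0 CPM. From other MG the 63 cells differed in CPM by -0.40 for *Slc1a2*, -0.61 for *Slc38a3*, -0.46 for *Glud1* and -0.34 for *Slc1a3*. As UMIs per cell, the 63 and the other MG held 92.5 and 132 of *Glul* and 12.4 and 11.9 of *Slc1a2*. They held 3.57 and 3.95 of *Slc38a3*, 2.97 and 2.97 of *Glud1* and 35.3 and 32.4 of *Slc1a3*.

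The G2/M cells with under 3 *Mcm* UMIs were rich in late markers of division, with 2027 CPM of *Cenpf* and 478 of *Ccnb1* (cyclin B1), against 381 and 54.9 in those with more. In CCANT the same split, into 27 and 29 cells, gave *Glul* at 2198 and 1270.1 CPM and *Slc38a1* at 83.0 and 142. From other CCANT MG, *Slc38a1* in the 29 cells differed by 0.25 (-0.02 to 0.50) on the CPM scale, within counting error. For *Glul* and *Slc38a1* the order of the sorts was that of CCA. For *Slc1a2*, at 175 and 172 CPM, the sorts did not differ beyond counting error, and for *Slc1a3*, at 1096 and 1244, the order was the opposite of that in CCA.

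Other genes of MG were also lower in G2/M. In CCA, *Rlbp1* stood at 689 against 1889 CPM, *Abca8a* at 396 against 1280, *Apoe* at 6255 against 11674, *Clu* at 1923 against 3642, *Dkk3* at 926 against 1840, *Sox9* at 239 against 466 and *Kcnj10* at 112 against 198. *Aqp4* differed by -1.44 on the log2 scale. Total UMIs per cell also differed, with a median of 26769 in G2/M and 20587 outside the gates, so levels were also counted per cell. There, *Slc1a3* held 31.6 UMIs in G2/M and 32.4 in other cells, and *Glul* held 50.4 and 132. As UMIs per cell, the log2 differences were -1.39 for *Glul*, -0.56 for *Slc1a2*, -0.40 for *Slc38a3*, -0.13 for *Glud1*, -0.03 for *Slc1a3* and 0.97 for *Slc38a1*. On that scale *Slc1a3* and *Glud1* were no longer lower by the limit used, and *Glul*, *Slc1a2* and *Slc38a3* still were. The shares and the median over all genes given above are of CPM and do not hold for UMIs per cell, where none is given. The rod list stood at 793 CPM in CCA G2/M cells, 382 in S and 376 outside the gates, and at 963 in the G2/M cells with under 3 *Mcm* UMIs. In CCANT it stood at 929 CPM in G2/M, 799 in S and 488 outside the gates. The part of rod transcripts in these differences was not tested.

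**Figure D3:**
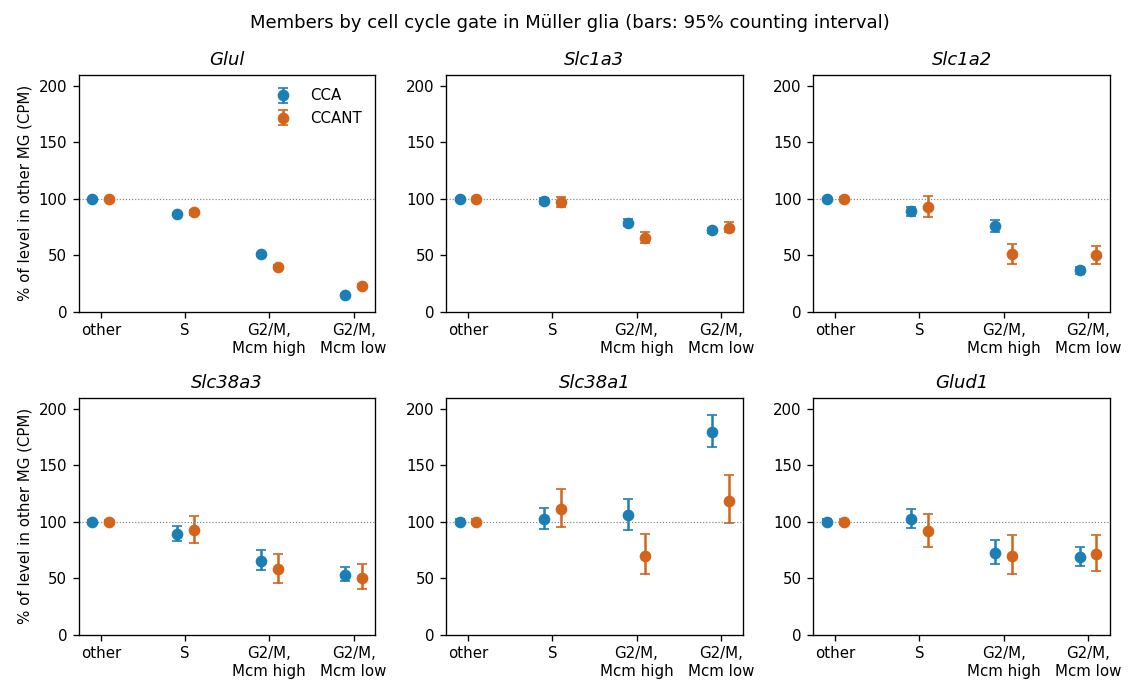
Level of each of the 6 genes in S and G2/M cells as a percent of its level in MG outside both gates, for the CCA and CCANT libraries, with exact 95% counting intervals and with G2/M cells split by *Mcm* UMIs (high, 3 or more; low, under 3). *Glul* lies lowest of the 6 in the G2/M cells with low *Mcm* in both libraries, and *Slc38a1* lies above 100% there in CCA, while its interval in CCANT includes 100%.

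**Figure D4:**
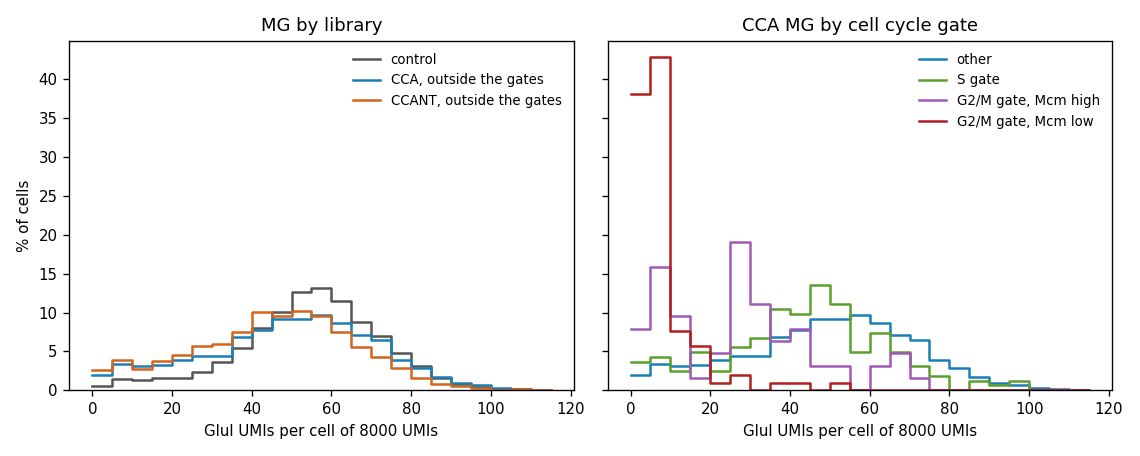
Distribution of *Glul* UMIs per MG after thinning every cell to 8000 UMIs, as a percent of cells in bins of UMIs, by library on the left and by cell cycle gate in the CCA library on the right. The treated libraries hold more cells at the low end outside the gates, and 81.0% of CCA G2/M cells with low *Mcm* lie under 10 UMIs against 5.33% outside the gates.

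Neurons were read in a wider set of cells that did not need a tdTomato UMI, with classes taken from marker genes and written here as rod-like, cone-like and so on. There were 851, 1359 and 1320 rod-like, 153, 265 and 251 cone-like, 727, 1107 and 1250 bipolar-like, 861, 1000 and 852 amacrine-like, 143, 79 and 52 ganglion-like and 30, 28 and 30 horizontal-like cells in the control, CCA and CCANT libraries. All markers of each class stood above their MG level, apart from 1 of 8 amacrine markers in the control. The same marker lists had named the classes, so this is no separate check of the names. Levels were given as a percent of the level of the same gene in MG of the same library. Beside them stands the range for the 8 MG markers, which in the control was 2.74% to 7.67% in rod-like, 1.94% to 9.86% in cone-like, 5.27% to 7.77% in bipolar-like and 11.2% to 22.7% in amacrine-like cells.

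*Glul* and *Slc1a3* in rod-, cone-, bipolar- and amacrine-like cells lay within or below the range of the MG markers. *Glul* stood at 4.81%, 2.85%, 6.07% and 13.0% of its MG level in rod-, cone-, bipolar- and amacrine-like cells of the control, and *Slc1a3* at 3.27%, 1.98%, 5.0% and 12.9%. Neither lay above the highest MG marker in all 3 libraries in any of the 6 neuron classes. Astrocyte-like cells, 15, 33 and 142 in number, held *Slc1a3* at 118%, 121% and 91.8% of the MG level, where the highest MG marker stood at 91.9%, 124% and 119.6%.

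*Slc1a2* was different. Cone-like cells of the control held 1772 CPM (1714 to 1831), those of the CCA library 1670.0 (1628 to 1713) and those of the CCANT library 1583 (1541 to 1626), which is 294%, 328% and 470.0% of MG. Bipolar-like cells held 519, 497 and 479 CPM and rod-like cells 453, 416 and 441. The MG level in this wider set was 602, 509 and 337 CPM, so bipolar- and rod-like cells stood below MG in the control and above MG in CCANT. Amacrine-like cells held 17.2%, 17.1% and 24.3% of the MG level, close to the MG markers, and ganglion-like cells 7.91%, 10.5% and 11.2%.

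The CCANT difference of *Slc1a2* was much smaller in cone-, bipolar- and rod-like cells than in MG. From control to CCANT it was -0.84 (-0.86 to -0.82) in MG of the wider set, -0.16 (-0.22 to -0.10) in cone-like, -0.12 (-0.16 to -0.07) in bipolar-like and -0.04 (-0.12 to 0.04) in rod-like cells, and the intervals of these 3 classes did not overlap that of MG. In amacrine-like cells it was -0.34 (-0.43 to -0.25) and in ganglion-like cells -0.33 (-0.66 to -0.01), while in horizontal-like cells it was -3.42 (-4.67 to -2.39), further from 0 than in MG. Cone-like cells held 23.3, 22.8 and 21.5 UMIs of *Slc1a2* per cell, and as a percent of MG this lay above all of the 8 MG markers. In horizontal-like cells 97, 49 and 8 UMIs of *Slc1a2* were counted, which is 9.13%, 6.95% and 1.52% of the MG level in 28 to 30 cells per library, and the MG markers there stood at 7.69% to 15.1%, 4.09% to 11.1% and 2.30% to 7.90%.

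*Slc38a3* was close to the MG level in photoreceptors. It stood at 156, 163 and 155 CPM in rod-like, 174, 182 and 163 in cone-like and 125, 134 and 133 in bipolar-like cells, which is 85.0%, 93.7% and 81.5%, 94.4%, 105% and 85.7%, and 67.7%, 77.3% and 69.8% of MG. *Slc38a1*, the carrier known for uptake of glutamine into neurons, was higher in bipolar-, cone-, ganglion- and amacrine-like cells than in MG and lower in the other 2 neuron classes. It stood at 339, 319.6 and 296 CPM in bipolar-like cells, 269.8%, 253% and 242% of MG, and at 324, 310.2 and 292 in cone-like cells. Ganglion-like cells held 167%, 162% and 148% and amacrine-like cells 150.0%, 157% and 145% of the MG level, while rod-like cells held 16.8%, 13.0% and 14.3% and the few horizontal-like cells 41.0%, 36.0% and 18.3%.

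*Glud1* was lower in all neuron classes than in MG. It was highest in ganglion-like cells, at 75.1%, 82.2% and 77.4% of the MG level, stood at 58.0%, 62.4% and 65.1% in amacrine-like and at 48.7%, 70.3% and 73.1% in the few horizontal-like cells, and lay between 31.3% and 40.4% in rod-, cone- and bipolar-like cells. Of the 36 pairs of a gene and a neuron class, 18 lay above the highest MG marker in all 3 libraries, a rule chosen after the values had been seen. Over all genes with at least 20 CPM in MG, 88.3% of the pairs did so, a larger share than among the 6 genes. These were 3 classes for *Slc1a2*, 3 for *Slc38a3*, 6 for *Slc38a1*, 6 for *Glud1* and 0 for *Glul* and *Slc1a3*.

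**Figure D5:**
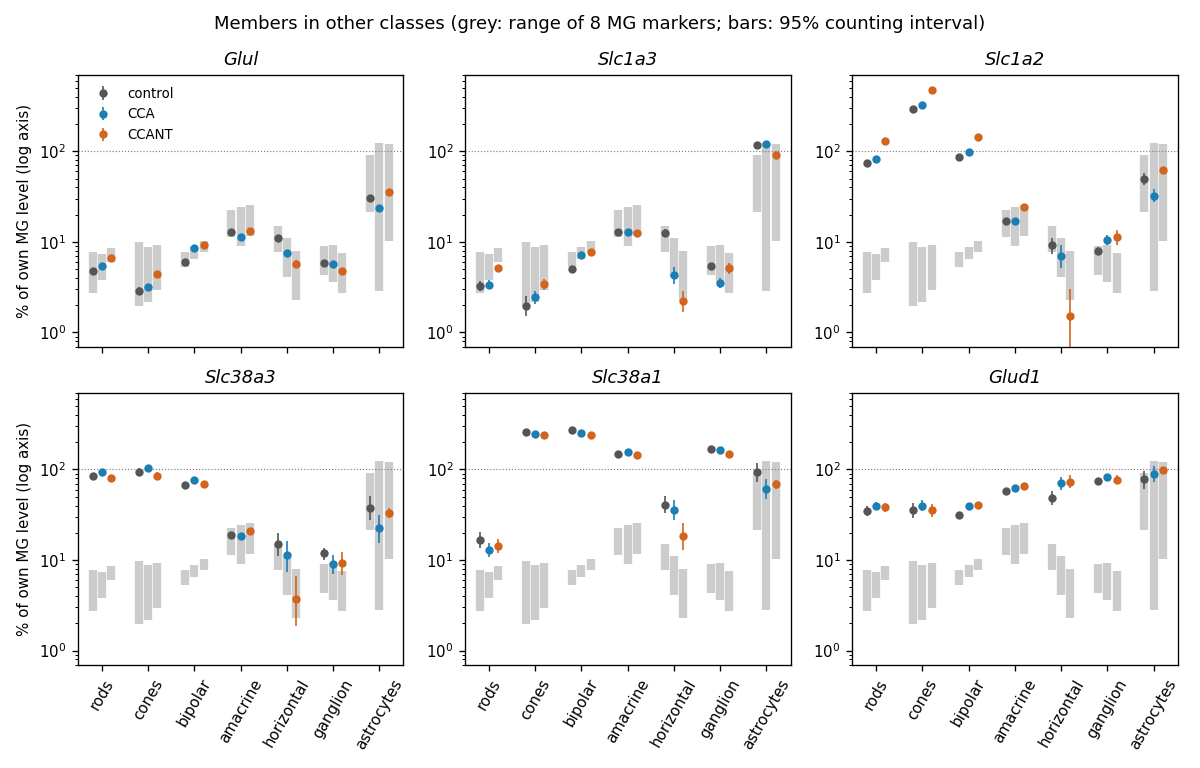
Level of each of the 6 genes in the neuron classes and astrocyte-like cells as a percent of the same gene's level in MG of the same library (log axis), with exact 95% counting intervals and, in grey, the range of the 8 MG markers. *Glul* and *Slc1a3* lie at or near the MG marker range, and *Slc1a2* in cone-like cells lies at 294%, 328% and 470.0%.

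The pattern over cell classes was set beside that of all genes, by Pearson correlation of log2(CPM + 1) over 39 sums of cells by class and library, which share libraries and depth. Among 13662 genes, *Rlbp1* (r = 0.975), *Espn* (0.970) and *Efhd1* (0.964) were most like *Glul*, and *Pdpn* (0.979), *Cp* (0.979) and *Ildr2* (0.978) most like *Slc1a3*. *Epb41l5* (0.900), *Plekhb1* (0.884) and *Prkd1* (0.875) were most like *Slc1a2*, and *Prkd1* (0.903), *Atf7* (0.880) and *Map7* (0.864) most like *Slc38a3*. *Cenpv* (0.819), *Rfx5* (0.774) and *Spred3* (0.771) were most like *Slc38a1*, with lower values than for the other genes, and *Acadl* (0.913), *Atp1b3* (0.906) and *Lpp* (0.899) most like *Glud1*. Among the 6 genes themselves, *Glul* and *Slc1a3* (r = 0.930) and *Slc1a2* and *Slc38a3* (0.878) were the closest pairs.

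A list of 46 further genes of glutamate and glutamine handling was read in the same cells, 24 of which had at least 20 CPM in MG. Of those 24, 5 were lower and 3 higher by the same measure in CCA, against 4.85% and 7.72% of all genes tested. In CCANT, 7 were lower and 5 higher, against 7.43% and 7.32%, and the medians were -0.01 and -0.11. In CCA cells in G2/M, 10 were lower and 6 higher, against 23.5% and 35.9%, with a median of -0.25. In S, 3 were lower and 3 higher, against 7.68% and 14.9%.

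Among the carriers, *Slc7a11*, the cystine/glutamate exchanger, stood at 34.7, 23.5 and 25.3 CPM in control, CCA and CCANT MG (-0.56 and -0.45 on the log2 scale), while its partner chain *Slc3a2* stood at 182, 208 and 233 (0.19 and 0.36). *Slc7a5*, a large neutral amino acid carrier that pairs with the same chain, stood at 20.03, 20.9 and 29.6 (0.06 and 0.56), and *Slc7a8*, another of its partners, at 177, 138 and 140.5 (-0.36 and -0.33). The glutamine carrier *Slc38a2* stood at 49.9, 65.9 and 64.4 (0.40 and 0.37), and the neutral amino acid carrier *Slc1a4* at 23.3, 22.1 and 17.8 (-0.08 and -0.39). In G2/M cells *Slc7a8* differed most of these, with 39.0 against 146 CPM (-1.91, -2.13 to -1.70).

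The enzymes and GABA handling genes past these limits were lower in treated MG. *Psat1*, a serine synthesis enzyme that takes its amino group from glutamate, stood at 99.8, 78.0 and 67.0 CPM (-0.35 and -0.57), but at 124 CPM in CCA G2/M cells against 73.5 in the others (0.75, 0.63 to 0.88). *Gfpt1*, which uses glutamine for hexosamine synthesis, stood at 86.5, 70.8 and 67.8 (-0.29 and -0.35). The glial GABA transporter *Slc6a11* stood at 397, 313 and 289 (-0.34 and -0.46), with -1.22 in G2/M cells, and *Aldh5a1*, of GABA breakdown, at 33.6, 26.2 and 26.6 (-0.36 and -0.33). The subunit *Atp1b2* of the sodium pump, whose gradient drives glutamate uptake, stood at 253, 348 and 321 (0.46 and 0.34), and the membrane linker *Ezr* at 22.3, 31.0 and 35.3 (0.48 and 0.66).

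Of the 46, 30 had a mean of at least 20 CPM in the neuron class where they were highest, and 24 of these 30 stood higher there than in MG. Among all genes with that level in a neuron class, 84.4% did so, a share near that of the list. Among glutamate transporters, *Slc1a7* held 233, 225 and 236 CPM in cone-like cells against 1.72 to 2.09 in MG, and *Slc1a1* held 57.6, 68.0 and 56.4 in amacrine-like cells against 1.08 to 1.26. The vesicular glutamate transporters held 912, 926 and 898 CPM (*Slc17a7*, cone-like) and 509.9, 474 and 502 (*Slc17a6*, ganglion-like). *Slc17a6* is on the marker list that named the ganglion-like class, so its high level there is no separate result. *Got1*, a transaminase of glutamate and aspartate, held 356, 404 and 421 CPM in ganglion-like cells.

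The glutamate decarboxylases *Gad1* and *Gad2*, which are on the amacrine marker list, and *Aldh5a1* were highest in amacrine-like cells. *Got2*, *Asns*, *Slc38a2*, *Slc1a4*, *Slc7a11* and *Arl6ip5* were highest in ganglion-like cells, and *Slc7a5*, *Slc7a6*, *Gclc* and *Gss* in horizontal-like cells. *Slc25a22* was highest in bipolar-like, *Slc25a12* and *Gfpt1* in rod-like and *Atp1b2* in cone-like cells.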

How the data were processed

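Single cells were sequenced as 3 droplet libraries (10x Genomics 3′ chemistry), 1 per group. The authors deposited raw UMI counts per feature and barcode, made with Cell Ranger 6.1.1 on mm10 with tdTomato and GFP added and intronic reads counted, and a joint table of counts for the cells they kept, whose control cells held a median of 93.1% of their library UMIs. These cells were therefore read from the library matrices. Depth per kept cell was 4142 to 90393 UMIs (control), 3592 to 84269 (CCA) and 3906 to 73713 (CCANT). For the wider set, barcodes under 2000 features, over 100000 UMIs or over 15% mitochondrial UMIs were dropped.

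Cells were clustered (scanpy 1.11.5, leidenalg 0.10.2, 2000 variable genes, 20 neighbours, 7 components and resolution 0.3 for kept cells, 20 and 0.5 for the wider set), with members, pathway genes and sex-linked genes left out. Classes were named from marker lists by a rule chosen once the clusters were known. A cluster of 689 kept cells that mixed MG and rod transcripts and one of 52 cells took no class and were left out. Of MG, 27 control, 76 CCA and 40 CCANT cells were under the 8000 UMIs used for thinning. Levels are summed UMIs per 1000000 UMIs (CPM). Intervals are exact Poisson or Clopper-Pearson intervals at 95%, and a count of 0 is read against 3 counts. Genes entered the counts of lower (20% or more) and higher (25% or more) genes from a mean of 20 CPM and a sum of 50 UMIs. The study removed doublets before its joint table. Scrublet (expected 5%) marked 0% of control, 4.17% of CCA and 0% of CCANT cells of the wider set, so its call was not used for the main values. No doublets were removed from the wider set.

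The members, the pathway list and the marker lists were chosen with earlier results of these data known. Named genes were the 6 members, pathway genes past these limits in a treated library or higher in a neuron class than in MG, and the 3 genes most alike to each member. Some pathway genes that meet this rule are not reported here, though counts over the list include them. The pathway gene for pyruvate carboxylase is listed in the files as *Pcx*. Interval and count steps were tested on simulated Poisson counts. These hold no spread between cells beyond counting error, so the simulation does not bear on such spread.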

Additional observations from a re-analysis of the deposited data

Results flagged for a closer look

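These results stood out because a gene differed one way in MG of the wider cell set and the other way in a neuron class. The difference between the classes was not tested in any of them, since each group was 1 library. From control to CCA, *Glul* differed by -0.26 on the log2 scale in MG and 0.23 in bipolar-like cells, and *Slc1a3* by -0.14 in MG and 0.37 in bipolar-like cells. From control to CCANT, *Glul* differed by -0.33 in MG, 0.15 in rod-like, 0.32 in cone-like and 0.27 in bipolar-like cells. In these neuron classes *Glul* and *Slc1a3* lay within or below the range of the MG markers, as a percent of the MG level.

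From control to CCANT, *Slc1a3* differed by 0.012 in MG and -2.49 in horizontal-like cells, and *Slc38a3* by 0.047 in MG and -1.98 in horizontal-like cells. There were 30 horizontal-like cells in each of these libraries. As a percent of the MG level, *Slc1a3* there stood at 12.5% and 2.22% and *Slc38a3* at 15.1% and 3.71%, and the MG markers at 7.69% to 15.1% in the control and 2.30% to 7.90% in CCANT.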

How the results depend on the processing

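No paired analysis was possible because each group was 1 library, and for the same reason no library could be left out. Alternatives on the top 5% of doublet scores, depth bands, clusters and *Mcm* gating were added after seeing the data. The median log2 difference of the 6 genes in CCA MG was -0.16, and -0.18 with median-of-ratios scaling, with means of single cells and over all kept cells, -0.11 outside the cell cycle gates, -0.19 in all MG passing the filters, -0.15 from the joint table and with rod transcripts left out, -0.13 at 15000 to 25000 UMIs and 0.13 as a mean of ratios within clusters. In CCANT it was -0.19, and -0.16 in all MG passing the filters, -0.23 over all kept cells and 0.081 within clusters. The number of the 6 genes at least 20% lower in CCANT was 1, and 2 in all MG passing the filters, 3 over all kept cells and 2 in cells with Y-linked UMIs only. No share over all genes is given for these other settings, and all kept cells include the cluster of mixed MG and rod transcripts. *Slc1a2* in CCANT MG ranged from -0.89 to -0.48 over 12 alternatives. In G2/M the median was -0.65, and -0.26 as UMIs per cell and -0.43 in cells with 3 or more *Mcm* UMIs, and in S it was -0.09, and 0.067 as UMIs per cell. The median over all genes is not given as UMIs per cell. On the CPM scale *Slc38a1* in G2/M was 0.59 in CCA and -0.059 in CCANT. The median share of MG with a UMI was 79.5%, and 95.6% without thinning. The 18 pairs of gene and neuron class above the MG markers were 18 in each of 4 alternatives. With no minimum level, the share of all genes past the limits of 20% lower or 25% higher was 29.1% in place of 12.6% in CCA and 30.6% in place of 14.7% in CCANT. Of the other values, mostly of single genes, 185 were unchanged within their error, 86 moved by more, and 1 past the limits, that of *Slc38a1*, changed sign. Counting small values too, 13 changed sign, and as a mean within clusters *Glul* and *Slc1a2* in CCA stood at 0.12 and 0.13. The cause of these changes was not tested. With 1 library per group, differences between mice are not covered.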
